A study of Homo sapiens with 18 samples.

Results

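Type 1 diabetes is accompanied by antibodies and T cells against a small set of beta cell proteins, and 7 of the genes that encode them, all other than insulin, are described here across 18 libraries: PTPRN, PTPRN2, GAD1, GAD2, SLC30A8, TSPAN7 and G6PC2. They were taken by symbol from a table of 57808 genes, and each was found once. All cells came from MEL1, an established line of human embryonic stem cells with GFP placed in an allele of the insulin gene (INSGFP/W), so that GFP reports activity of the insulin promoter. Each of 9 groups held 2 libraries, which the labels number but do not place in separate cultures, so that p-values measure only the spread between these libraries.

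The stem-cell-derived beta-like cells (sBC) were grown in stirred suspension and sorted by GFP. RNA-seq was made from GFP+ sBC, whose label gives no ribosome tag, and from GFP- sBC from the same sort scheme. Footprints pulled down with a FLAG antibody (IP-Ribo) came from GFP+ sBC that had received RPL22-FLAG, a tagged ribosomal protein, by lentivirus. Definitive endoderm (DE, the germ layer that gives rise to gut and pancreas) and undifferentiated pluripotent cells (hPSC) carried RPL22-FLAG in all of their libraries, with RNA-seq, IP-Ribo and total footprints (Ribo) of each. The day of differentiation at which sBC were taken is not given in the sources used here.

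PTPRN and PTPRN2 are receptor-type tyrosine phosphatase-like proteins of dense-core granule membranes and lack most phosphatase activity. GAD1 and GAD2 are the paralogous glutamate decarboxylases that make the transmitter GABA, GAD2 being the form that patients' antibodies chiefly bind. SLC30A8 loads zinc into insulin granules, TSPAN7 is a tetraspanin of the cell surface, and G6PC2 is the islet glucose-6-phosphatase. Beta cells share PTPRN, PTPRN2 and the GAD enzymes with other endocrine cells or with neurons, and proteins of the insulin granule reach the cell surface during secretion.

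Of the 7 genes 3 lie on chromosome 2 in GRCh38.p14. These are PTPRN (219289623 to 219309401), GAD1 (170813210 to 170861151) and G6PC2 (168901291 to 168910000). PTPRN2 lies on chromosome 7 (157539056 to 158587823), GAD2 on chromosome 10 (26216372 to 26304558) and TSPAN7 on chromosome X (38561542 to 38688918). The spans run from 8710 bp for G6PC2 to 1048768 bp for PTPRN2. PTPRN and PTPRN2 also share a resident microRNA family. MIR153-1 lies within PTPRN and MIR153-2 within PTPRN2, and the mature form of MIR153-1 in RefSeq, on the minus strand at chr2:219294126-219294147 like its host gene, is shown with its seed (bases 2 to 8) in capitals:
hsa-miR-153-3p: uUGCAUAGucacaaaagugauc
The rows of the hairpins themselves held 0 counts (MIR153-1) and 8 counts (MIR153-2) over all 18 libraries. The antisense gene PTPRN2-AS1, inside PTPRN2, held 4 counts. Whether counting used strand is not given in the sources used here, and reads of GAD1-AS1, which overlaps GAD1, cannot be told apart from reads of GAD1.

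Promoters of 4 of the 7 genes were in the RefSeq table (GRCh38.p14), and the 250 bases before the start site are shown for the GAD paralogs, which moved in opposite directions, for a granule membrane gene (PTPRN) and for the gene without counts outside sBC (G6PC2). Capitals mark matches, on both strands, to an E-box (CANNTG), a cAMP response element half-site (TGACG), a homeodomain core (TAATTA) or a TATA box (TATAAA).
PTPRN, minus strand, chr2:219309402-219309651: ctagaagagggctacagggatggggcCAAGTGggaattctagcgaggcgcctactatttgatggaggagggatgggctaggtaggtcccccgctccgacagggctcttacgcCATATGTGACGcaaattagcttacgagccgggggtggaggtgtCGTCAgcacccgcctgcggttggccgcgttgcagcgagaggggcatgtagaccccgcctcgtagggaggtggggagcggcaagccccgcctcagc
GAD1, plus strand, chr2:170816637-170816886: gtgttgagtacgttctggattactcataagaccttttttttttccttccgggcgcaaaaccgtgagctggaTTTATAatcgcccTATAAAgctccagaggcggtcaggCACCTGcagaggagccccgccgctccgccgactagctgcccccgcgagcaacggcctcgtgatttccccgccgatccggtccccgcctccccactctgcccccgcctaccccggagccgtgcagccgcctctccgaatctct
GAD2, plus strand, chr10:26216122-26216371: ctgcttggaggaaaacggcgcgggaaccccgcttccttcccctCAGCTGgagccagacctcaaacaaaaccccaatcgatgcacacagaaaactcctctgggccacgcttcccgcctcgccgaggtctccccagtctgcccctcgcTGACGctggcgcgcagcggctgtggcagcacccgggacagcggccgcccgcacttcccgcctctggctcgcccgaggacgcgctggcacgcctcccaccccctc
G6PC2, plus strand, chr2:168901041-168901290: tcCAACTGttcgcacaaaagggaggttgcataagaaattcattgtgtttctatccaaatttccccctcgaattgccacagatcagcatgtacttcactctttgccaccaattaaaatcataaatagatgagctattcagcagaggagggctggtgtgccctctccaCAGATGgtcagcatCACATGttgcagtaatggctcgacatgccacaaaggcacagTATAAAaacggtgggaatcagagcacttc
The window of G6PC2 differed in base composition from the other 3. It held 4 CpG dinucleotides at 44.8% GC, against 18 at 63.6% in PTPRN, 23 at 61.6% in GAD1 and 24 at 69.2% in GAD2, and the median over 34788 promoters was 11 CpG at 58.0% GC. A TATA box stood 29 to 24 bases before the start site of G6PC2. Of all promoters 10.8% held TATA box letters anywhere in the 250 bases, and the share at this position was not counted. GAD1 held TATA box letters as well, but at 179 to 174 and 166 to 161 bases before the start shown, which lies inside its annotated span. PTPRN held 2 half-sites of the cAMP response element and GAD2 held 1, none overlapping an E-box, while the letters were found in 21.2% of promoters. E-box letters occurred in 61.8% of promoters and the homeodomain core, found in none of the 4 windows, in 4.37%. The table held a second promoter each for PTPRN and GAD2, further into the gene and not shown, and neither held letters of any of the 4 motifs. These matches are letters in a window, and binding was not measured here.

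The libraries held 6.61 M to 92.53 M counts, with DE IP-Ribo replicate 1 (6.61 M) and both GFP+ sBC IP-Ribo libraries (8.73 M and 7.59 M) the shallowest. Levels below are counts scaled to the library total (CPM) with TMM factors within an assay, are comparable within an assay, and are not corrected for gene length, so one gene's level is not set against another's. In RNA the summed markers of hPSC and of DE were highest in the stage they mark. The 4 hPSC markers summed to 6429 and 6838 CPM in hPSC RNA and to 16.9 and 15.8 CPM in GFP+ sBC RNA. In DE RNA they summed to 2616 and 2441 CPM, most of it LIN28A (2565 and 2393 CPM). The 5 DE markers summed to 3066 and 3213 CPM in DE RNA, 17.9 and 16.5 CPM in hPSC RNA, and 212 and 199 CPM in GFP+ sBC RNA, the last mostly FOXA2 (161 and 147 CPM). INS had 4397 and 4828 CPM in GFP+ sBC, against 1702 and 981 CPM in GFP- sBC, and 0 counts in every hPSC and DE library. Markers of alpha cells were also present in the cells labelled as beta cells: 5 of them, the glucagon gene GCG included, summed to 37417 and 24724 CPM in GFP+ sBC, against 20525 and 13329 CPM in GFP- sBC, and none was at 0 in either group. GFP- sBC replicate 1 stood apart, with 2610 CPM of RPL22 where GFP- replicate 2 had 803 CPM, and the log2 fold changes of the sort are given below also without it.

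In RNA, 6 of the 7 genes were higher in GFP+ sBC than in hPSC, and GAD1 was the exception. In the edgeR quasi-likelihood test, with Benjamini-Hochberg adjustment over all genes and a threshold of 0.05, 61.3% of 23321 genes changed in this comparison and 30.4% were higher, so that passing it is common. The median log2 fold change was 7.25 over the 7 genes and 0.04 over all genes. In bulk samples, fewer cells of a type and less RNA per cell cannot be told apart.

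**Figure D1:**
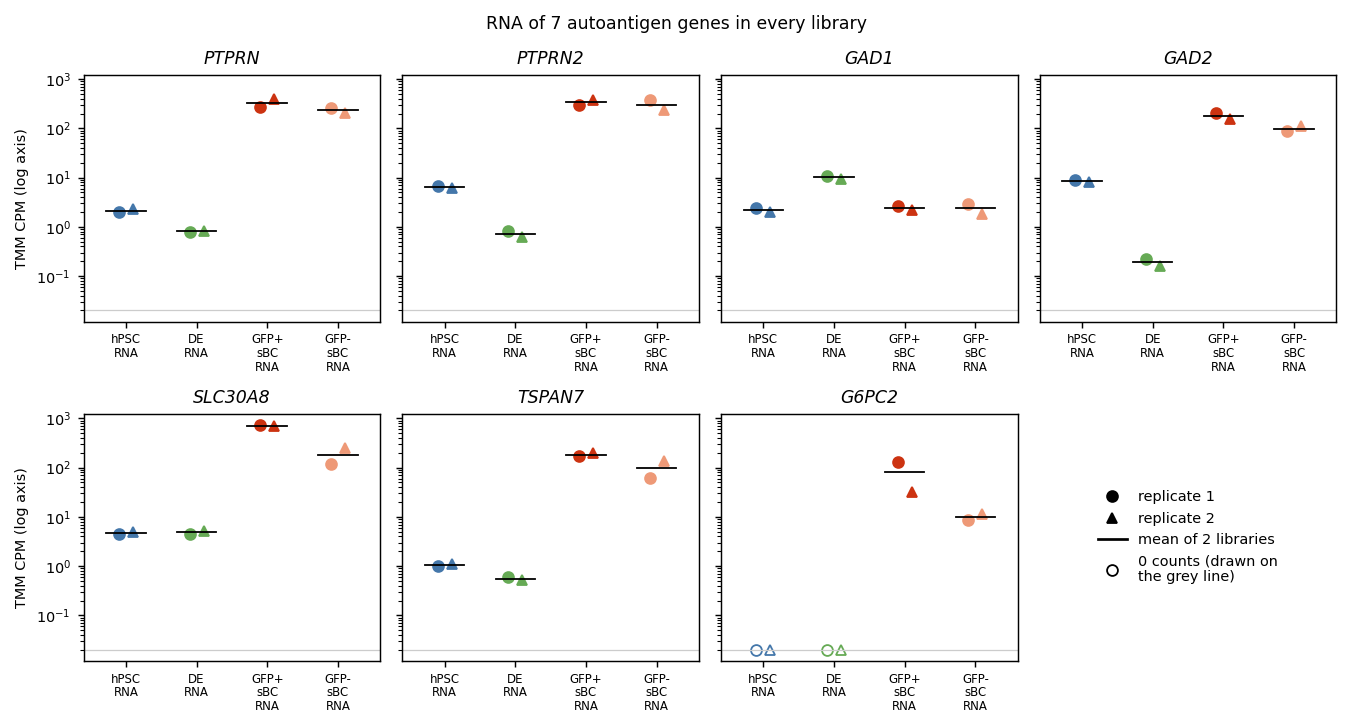
RNA level of each gene in every library, in TMM-scaled CPM on a log axis, with replicate 1 as a circle, replicate 2 as a triangle and the mean of 2 libraries as a line; open symbols on the grey line are libraries with 0 counts. Apart from GAD1, highest in DE at 10.9 and 9.29 CPM, every gene is highest in the sBC groups, and G6PC2 is at 0 counts in hPSC and DE.

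Among the granule membrane proteins, PTPRN had 273 and 387 CPM in GFP+ sBC, 259 and 208 CPM in GFP- sBC, 0.772 and 0.838 CPM in DE, and 1.97 and 2.29 CPM in hPSC. Both sBC groups were thus far above DE and hPSC, with no overlap. The log2 fold change of PTPRN was 7.27 ± 0.30 (SE) for GFP+ sBC over hPSC (adjusted p = 6.22e-06) and 8.68 ± 0.32 over DE (adjusted p = 5.39e-06). PTPRN2, the paralog that sits in the same granules, had 297 and 377 CPM in GFP+ sBC, 371 and 238 CPM in GFP- sBC, 0.811 and 0.615 CPM in DE, and 6.88 and 6.08 CPM in hPSC. Its level in hPSC was above that in DE in both libraries, and both were far below sBC. For PTPRN2 the log2 fold change was 5.70 ± 0.32 for GFP+ sBC over hPSC (adjusted p = 1.24e-05) and 8.88 ± 0.37 over DE (adjusted p = 6.6e-06).

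GAD2, the glutamate decarboxylase of the classical autoantibody, had 203 and 155 CPM in GFP+ sBC, 86.3 and 109 CPM in GFP- sBC, 0.222 and 0.157 CPM in DE, and 8.96 and 8.06 CPM in hPSC. GAD2 was thus present in hPSC, close to nothing in DE (29 counts over both libraries) and abundant in sBC. The log2 fold change was 4.40 ± 0.26 for GFP+ sBC over hPSC (adjusted p = 1.49e-05) and 9.87 ± 0.35 over DE (adjusted p = 5.15e-06).

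GAD1, which makes the same product, took another course. Its levels were 2.64 and 2.19 CPM in GFP+ sBC, 2.95 and 1.82 CPM in GFP- sBC, 10.9 and 9.29 CPM in DE, and 2.46 and 2.01 CPM in hPSC. DE stood above every other library, and the other 3 groups overlapped. GAD1 was lower in GFP+ sBC than in DE (log2 fold change -2.07 ± 0.32, adjusted p = 0.00121), and 1 of the 7 genes was therefore lower in a comparison in which 60.7% of genes changed, with 29.9% higher and 30.9% lower. Against hPSC its log2 fold change was 0.11 ± 0.32 (adjusted p = 0.779).

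SLC30A8, the granule zinc transporter, lies on chromosome 8 (116950217 to 117176714 in GRCh38.p14). It had 732 and 698 CPM in GFP+ sBC, 121 and 245 CPM in GFP- sBC, 4.40 and 5.24 CPM in DE, and 4.46 and 4.92 CPM in hPSC. DE and hPSC overlapped, and the sBC groups lay above both. The log2 fold change of SLC30A8 was 7.25 ± 0.41 for GFP+ sBC over hPSC (adjusted p = 1.25e-05) and 7.21 ± 0.41 over DE (adjusted p = 1.37e-05). TSPAN7 had 175 and 194 CPM in GFP+ sBC, 61.2 and 134 CPM in GFP- sBC, 0.589 and 0.524 CPM in DE, and 1.02 and 1.08 CPM in hPSC. Here DE was below hPSC without overlap, and the sBC groups were again the highest. For TSPAN7 the log2 fold change was 7.46 ± 0.45 for GFP+ sBC over hPSC (adjusted p = 1.6e-05) and 8.37 ± 0.47 over DE (adjusted p = 1.37e-05).

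G6PC2 was the only one of the 7 with no count in any of the 12 hPSC and DE libraries, as was true of INS. It had 131 and 32.7 CPM in GFP+ sBC and 8.82 and 11.3 CPM in GFP- sBC. The 2 GFP+ libraries differed 4-fold (4570 and 1229 counts), the widest replicate ratio of the 7 genes in GFP+ RNA. A count of 0 over both libraries allows up to 0.0216 CPM in hPSC RNA and 0.0196 CPM in DE RNA (3 counts over the group, counting error only). Against that floor G6PC2 was at least 3713-fold higher in GFP+ sBC than in hPSC and at least 4081-fold higher than in DE, and it passed the test in both comparisons (adjusted p = 0.000394 against hPSC and 0.000424 against DE).

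The GFP- cells were not without these transcripts. Against hPSC, where 59.5% of genes changed and 31.2% were higher, the same 6 genes were higher in GFP- sBC, with log2 fold changes of 6.77 ± 0.29 for PTPRN, 5.55 ± 0.32 for PTPRN2, 3.52 ± 0.25 for GAD2, 5.29 ± 0.37 for SLC30A8 and 6.54 ± 0.43 for TSPAN7. G6PC2 was at least 459-fold higher in GFP- sBC than in hPSC and at least 504-fold higher than in DE. GAD1 did not pass against hPSC (0.10 ± 0.32, adjusted p = 0.805) and was lower than in DE (-2.08 ± 0.32, adjusted p = 0.00131), in a comparison in which 58.5% of genes changed and 30.4% were higher. The comparisons with GFP+ and with GFP- sBC share their hPSC and DE libraries.

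The sort itself asks how these transcripts differ between GFP+ and GFP- cells. It does not set cells with INS against cells without it, since GFP- sBC held INS at 1702 and 981 CPM. None of the 7 genes passed over all genes in edgeR, where 2.43% of 19797 genes changed and 0.0808% were higher in GFP+ sBC. At an unadjusted p under 0.05 there were 3 genes, GAD2, SLC30A8 and G6PC2, where 12.1% of all genes passed. DESeq2 called 2, SLC30A8 (adjusted p = 0.000258) and G6PC2 (adjusted p = 4.18e-06), and 6.38% of all genes. INS, whose promoter drives the reporter, did not pass either (log2 fold change 1.78 ± 0.41, adjusted p = 0.0749).

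The 7 genes fell along a wide range of differences in the sort. For 5 of them both GFP+ libraries were above both GFP- libraries, which held for 23.0% of all genes. G6PC2 had the highest log2 fold change of GFP+ over GFP- sBC, 3.01 ± 0.64 (adjusted p = 0.0567), and the groups did not overlap. Leaving out GFP+ replicate 1 gave 1.69 and leaving out GFP+ replicate 2 gave 3.70. Leaving out GFP- replicate 1 gave 2.82 and leaving out GFP- replicate 2 gave 3.22. SLC30A8 followed at 1.96 ± 0.41 (adjusted p = 0.058), without overlap, and gave 1.51 when GFP- replicate 1 was left out (adjusted p = 0.0119) and 2.57 when GFP- replicate 2 was (adjusted p = 0.000908).

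TSPAN7 was at 0.91 ± 0.43 (adjusted p = 0.466) and GAD2 at 0.87 ± 0.34 (adjusted p = 0.328), both without overlap between the sorted groups. TSPAN7 was at 0.43 without GFP- replicate 1, the library with high RPL22, and at 1.60 without GFP- replicate 2. GAD2 was at 0.69 without GFP- replicate 1. PTPRN was at 0.49 ± 0.34 (adjusted p = 0.647), also without overlap, and at 0.63 without GFP- replicate 1. PTPRN2 (0.14 ± 0.35, adjusted p = 0.891) and GAD1 (0.01 ± 0.51, adjusted p = 0.996) overlapped between the groups, and the sign of both changed with the library left out. Without GFP- replicate 1 they were at 0.47 (PTPRN2) and 0.37 (GAD1).

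**Figure D2:**
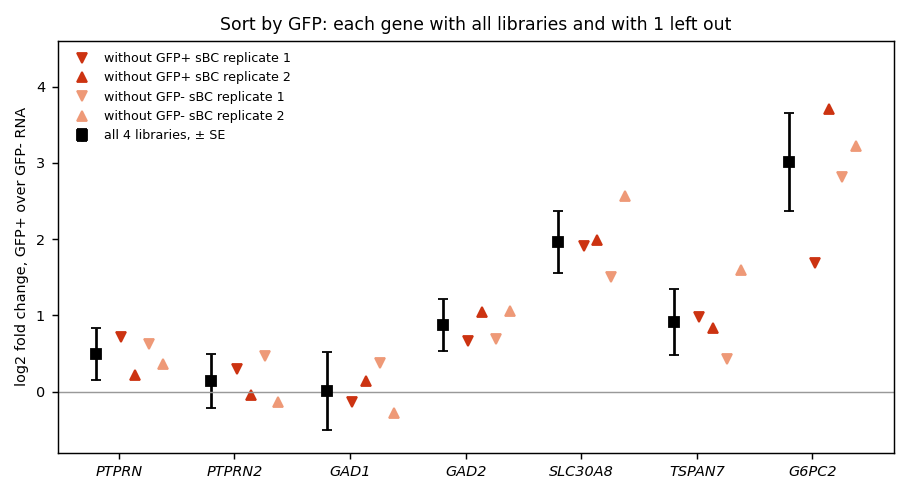
Log2 fold change of GFP+ over GFP- sBC RNA for each gene: black squares show all 4 libraries with the SE of the edgeR fit, triangles the same fit with 1 library left out. G6PC2 and SLC30A8 lie highest, at 3.01 and 1.96, and PTPRN2 and GAD1 lie around 0.

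Some markers of other cells differed between the sorted groups. The 6 beta cell markers summed to 4671 and 5126 CPM in GFP+ sBC and to 2005 and 1293 CPM in GFP- sBC. The difference in the sum was carried by INS itself, since the other 5 summed to 274 and 298 CPM in GFP+ sBC and to 303 and 312 CPM in GFP- sBC. None of the 6 passed in the sort, with log2 fold changes of 0.08 ± 0.32 for PDX1 (adjusted p = 0.936) and -0.53 ± 0.32 for NKX6-1 (adjusted p = 0.611), both transcription factors of beta cells. MAFA (0.09 ± 0.81) and PCSK1 (0.28 ± 0.49) also lay within their SE of 0. IAPP, a small part of the sum, had 13.7 and 4.80 CPM in GFP+ sBC and 1.59 and 1.03 CPM in GFP- sBC. Its groups did not overlap (2.81 ± 0.62, adjusted p = 0.0666). Of the 2 delta cell markers, the somatostatin gene SST had 782 and 926 CPM in GFP+ sBC and 133 and 117 CPM in GFP- sBC, and HHEX had 15.9 and 18.3 CPM in GFP+ sBC and 10.5 and 15.2 CPM in GFP- sBC (0.41 ± 0.38, adjusted p = 0.712), so that the first passed in the sort (2.77 ± 0.34, adjusted p = 0.0087) and the second did not. The 6 duct and acinar markers went the other way, with 184 and 301 CPM in GFP+ sBC and 1276 and 1223 CPM in GFP- sBC, none of them at 0 in either group. Neuron markers, of interest because neurons also make PTPRN, PTPRN2 and both GAD enzymes, summed to 169 and 214 CPM in GFP+ sBC and to 269 and 139 CPM in GFP- sBC and overlapped. None of the 7 tested passed in the sort, with log2 fold changes from -0.64 ± 0.50 (NEFM) to 1.95 ± 0.50 (SLC17A6, adjusted p = 0.103). SLC17A6 had 28.2 and 38.5 CPM in GFP+ sBC and 4.93 and 12.2 CPM in GFP- sBC, without overlap. The 3 markers of enterochromaffin-like cells, TPH1, FEV and SLC18A1, summed to 757 and 1117 CPM in GFP+ sBC and to 322 and 1239 CPM in GFP- sBC, and overlapped. Mesenchyme markers summed to 3.38 and 4.05 CPM in GFP+ sBC and to 65.9 and 8.34 CPM in GFP- sBC. The part of these markers' cells in the levels of the 7 genes was not tested.

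Before any islet fate, 5 of the 6 genes that could be tested changed in RNA between DE and hPSC, in a comparison in which 75.6% of genes changed. GAD1 was the gene that rose in DE, with 10.9 and 9.29 CPM in DE against 2.46 and 2.01 CPM in hPSC (log2 fold change 2.23 ± 0.14, adjusted p = 1.02e-07). GAD2 fell in DE by more than any of the others, at 0.222 and 0.157 CPM against 8.96 and 8.06 CPM in hPSC (-5.42 ± 0.19, adjusted p = 1.49e-09). The paralogs thus moved in opposite directions in the same libraries.

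The granule phosphatases fell as well, with a log2 fold change of -3.13 ± 0.17 for PTPRN2 (adjusted p = 4.07e-08) and -1.35 ± 0.19 for PTPRN (adjusted p = 6.57e-05). TSPAN7 was lower in DE (log2 fold change -0.86 ± 0.22, adjusted p = 0.00464), but did not pass in DESeq2 (adjusted p = 0.0646) or in a fit of all 8 RNA libraries (adjusted p = 0.129). SLC30A8 did not pass (0.09 ± 0.13, adjusted p = 0.548), and G6PC2 had no counts to test. For PTPRN, PTPRN2, GAD2 and TSPAN7 the RNA levels of both sBC groups were thus above hPSC, and hPSC was above DE. Between the 2 sBC groups none of these genes passed the test, and PTPRN2 overlapped.

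Footprints give the same genes as seen on ribosomes. In IP-Ribo, 6 of the 7 genes were higher in GFP+ sBC than in hPSC, in a comparison in which 58.9% of genes changed and 30.4% were higher. The same 6 were higher than in DE, where 52.6% of genes changed and 27.8% were higher.

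**Figure D3:**
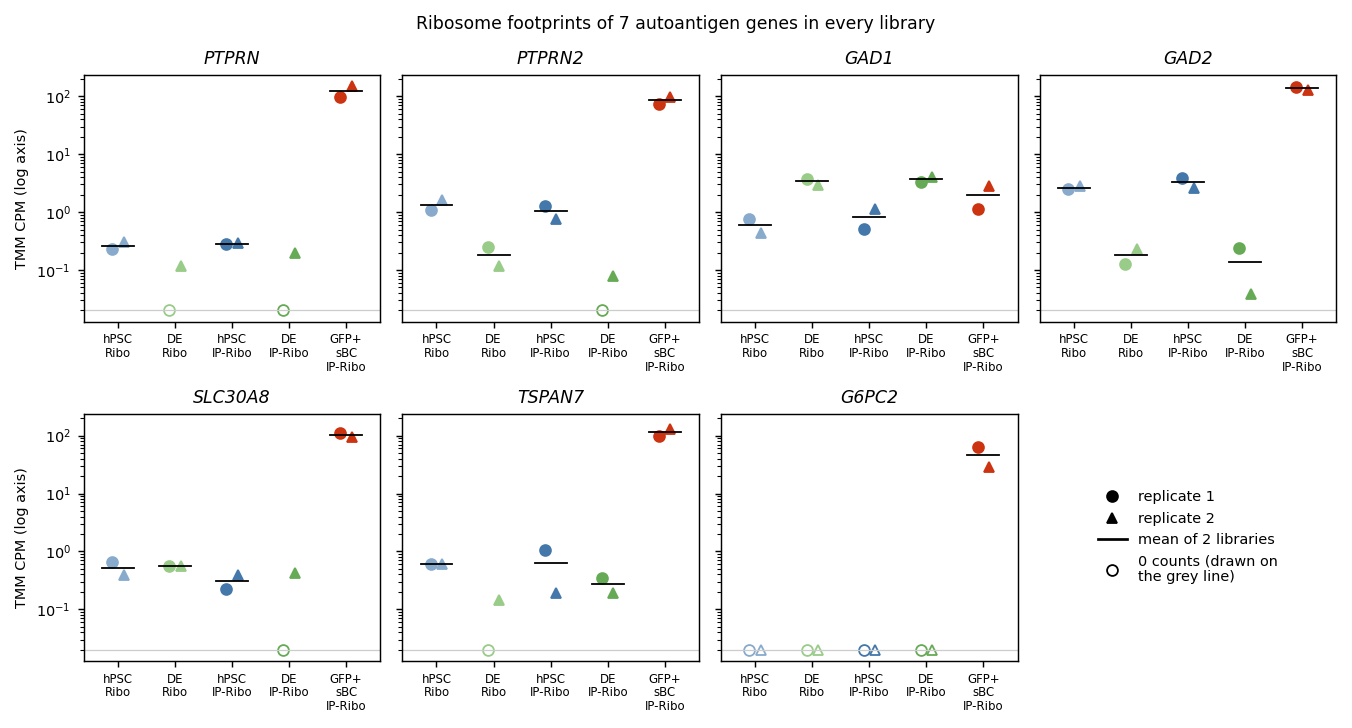
Footprint level of each gene in every library, in TMM-scaled CPM on a log axis, for total footprints (Ribo) and FLAG footprints (IP-Ribo), with symbols as for RNA; the 2 assays were scaled separately. Outside GFP+ sBC no gene exceeds 4.09 CPM, the level of GAD1 in DE IP-Ribo replicate 2, and G6PC2 is at 0 counts.

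PTPRN had 95.5 and 152 CPM of FLAG footprints in GFP+ sBC, 0 and 0.195 CPM in DE, and 0.283 and 0.289 CPM in hPSC. Its log2 fold change was 8.71 ± 0.53 for GFP+ sBC over hPSC (adjusted p = 2.4e-05) and 9.69 ± 0.58 over DE (adjusted p = 2.78e-05). PTPRN2 had 74.5 and 96.5 CPM in GFP+ sBC, 0 and 0.0779 CPM in DE, and 1.30 and 0.771 CPM in hPSC. As in RNA, the level in hPSC was above that in DE. PTPRN2 rose by 6.37 ± 0.40 over hPSC (adjusted p = 2.65e-05), and against the 2 counts in DE its ratio was 1466 (exact 95% counting interval 405 to 12116).

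GAD2 had 147 and 128 CPM of FLAG footprints in GFP+ sBC, 0.236 and 0.0390 CPM in DE, and 3.90 and 2.60 CPM in hPSC. It rose by 5.40 ± 0.39 over hPSC (adjusted p = 4.01e-05), and against the 3 counts in DE its ratio was 1562 (counting interval 534 to 7579). The pattern of RNA, with GAD2 between sBC and DE in hPSC, was seen here too. GAD1 rested on few footprints in sBC, 8 and 21 counts, or 1.15 and 2.85 CPM. It had 3.30 and 4.09 CPM in DE and 0.509 and 1.11 CPM in hPSC, and it passed neither against hPSC (1.29 ± 0.66, adjusted p = 0.127) nor against DE (-0.88 ± 0.63, adjusted p = 0.276).

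SLC30A8 had 109 and 95.9 CPM of FLAG footprints in GFP+ sBC, 0 and 0.429 CPM in DE, and 0.226 and 0.386 CPM in hPSC. It was higher in GFP+ sBC by 8.33 ± 0.60 over hPSC (adjusted p = 4.8e-05) and by 8.38 ± 0.62 over DE (adjusted p = 6.18e-05). TSPAN7 had 97.9 and 129 CPM in GFP+ sBC, 0.353 and 0.195 CPM in DE, and 1.07 and 0.193 CPM in hPSC. The hPSC libraries of TSPAN7 differed 5.57-fold and spanned DE, while GFP+ sBC was far above both. TSPAN7 was higher by 7.51 ± 0.67 over hPSC (adjusted p = 0.000167) and by 8.83 ± 0.76 over DE (adjusted p = 0.000173).

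G6PC2 was on FLAG ribosomes of GFP+ sBC at 62.7 and 29.1 CPM (435 and 214 counts). In the hPSC and DE IP-Ribo libraries it had 0 counts, which allows up to 0.0780 CPM in hPSC and 0.0878 CPM in DE. Against these floors G6PC2 was at least 582-fold higher in GFP+ sBC than in hPSC and at least 517-fold higher than in DE. Replicate 1 of GFP+ sBC was above replicate 2 both in RNA and in IP-Ribo, which were separate preparations. The same held for GAD2 and SLC30A8, while PTPRN, PTPRN2 and TSPAN7 had replicate 2 above in both, and GAD1 differed between the assays. The labels do not say whether equal numbers share a culture or sort.

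The contrast of the GAD paralogs between DE and hPSC was also measured on ribosomes, in both footprint assays. In total footprints GAD1 had 3.79 and 2.98 CPM in DE against 0.762 and 0.432 CPM in hPSC, a log2 fold change of 2.50 ± 0.41 (adjusted p = 0.0107). GAD2 had 0.126 and 0.234 CPM in DE against 2.48 and 2.79 CPM in hPSC (-3.75 ± 0.46, adjusted p = 0.00531). PTPRN2 was lower as well (-2.94 ± 0.64, adjusted p = 0.0218), so that 3 of the 5 genes tested changed where 34.1% of all genes did. None of the 3 passed when either hPSC Ribo library was left out (adjusted p from 0.0797 to 0.203), although their directions held.

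In IP-Ribo 3 of 6 genes tested changed between DE and hPSC, against 22.3% of all genes. GAD1 was higher in DE by 2.18 ± 0.64 (adjusted p = 0.0489), a call that was lost without any 1 of the 4 hPSC and DE libraries (adjusted p from 0.11 to 0.278). GAD2 was lower, with 3 counts in DE and 123 in hPSC, a ratio of 0.0275 (counting interval 0.00558 to 0.0821, adjusted p = 0.00209). PTPRN2 was lower, with 2 counts in DE and 39 in hPSC, a ratio of 0.0577 (0.00675 to 0.223, adjusted p = 0.00696). PTPRN (-0.98 ± 0.76), SLC30A8 (-0.05 ± 0.78) and TSPAN7 (-1.32 ± 0.86) did not pass.

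Counts of GAD2 per count of GAD1 put the exchange of paralogs in 1 number per library, uncorrected for gene length and so comparable only between libraries. In RNA the ratio was 77.1 and 71.1 in GFP+ sBC, 29.3 and 59.6 in GFP- sBC, 0.0204 and 0.0169 in DE, and 3.65 and 4 in hPSC. In IP-Ribo it was 127 and 44.9 in GFP+ sBC, 0.0714 and 0.00952 in DE, and 7.67 and 2.35 in hPSC, and in Ribo 0.0333 and 0.0809 in DE against 3.25 and 6.46 in hPSC. The stages did not overlap in any assay. The ratio in DE footprints rests on 1 to 8 counts of GAD2 per library.

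**Figure D4:**
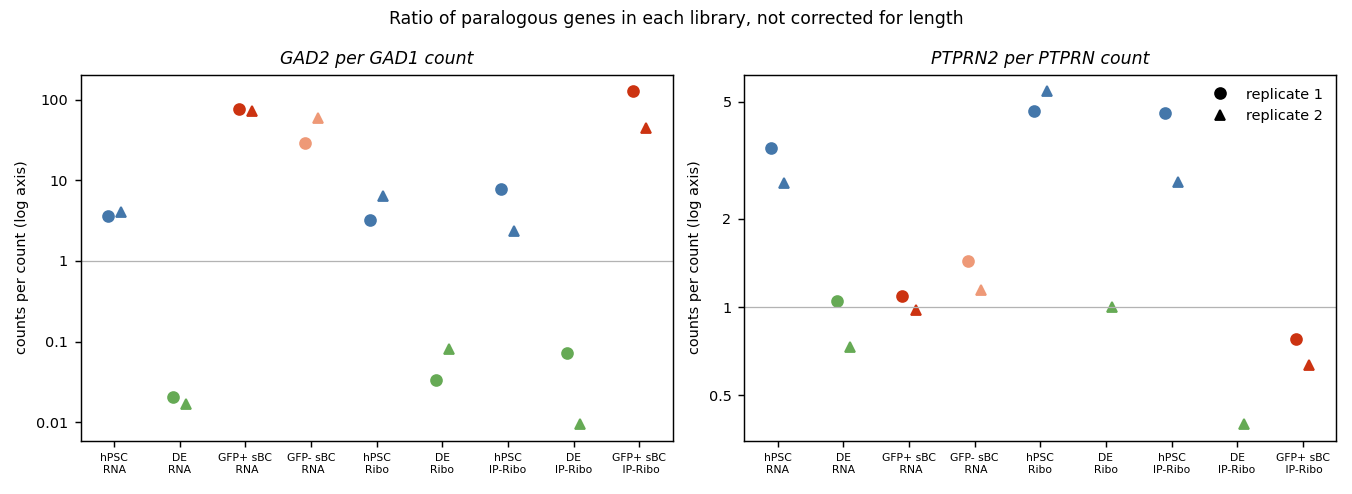
Counts of GAD2 per count of GAD1 (left) and of PTPRN2 per count of PTPRN (right) in each library on log axes, not corrected for gene length; libraries with 0 PTPRN counts have no point. GAD2 per GAD1 reaches at most 0.0809 in DE libraries, lies between 2.35 and 7.67 in hPSC and is at least 29.3 in sBC libraries.

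PTPRN2 per PTPRN moved less. In RNA it was 1.09 and 0.974 in GFP+ sBC, 1.43 and 1.14 in GFP- sBC, 1.05 and 0.734 in DE, and 3.49 and 2.65 in hPSC. The ratio was thus highest in hPSC, and DE overlapped GFP+ sBC. In IP-Ribo the ratio was 0.781 and 0.635 in GFP+ sBC and 4.6 and 2.67 in hPSC, the hPSC values resting on 5 and 6 counts of PTPRN.

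Translational efficiency (TE), the share of FLAG footprints relative to RNA, was compared between stages as an interaction in 1 fit of 12 libraries, and none of the 7 genes passed in any of 3 comparisons. For DE against hPSC 0 of 6 genes passed, where 0.167% of all genes did. For GFP+ sBC against hPSC 0 of 6 passed, where 15.0% did, and against DE 0 of 6, where 14.2% did. DESeq2 called 0 of the 7 genes in each as well, and 3.24%, 23.4% and 21.5% of all genes in the same order. At an unadjusted p under 0.05, which 10.6%, 28.5% and 28.3% of all genes reached, there was 1, GAD2 in GFP+ sBC against hPSC (log2 change 0.76 ± 0.34, unadjusted p = 0.0449, adjusted p = 0.163). PTPRN was at 1.24 ± 0.57 (adjusted p = 0.183), SLC30A8 at 0.86 ± 0.51 (adjusted p = 0.314), GAD1 at 0.95 ± 0.66 (adjusted p = 0.404), PTPRN2 at 0.44 ± 0.38 (adjusted p = 0.513) and TSPAN7 at -0.15 ± 0.56 (adjusted p = 0.991). Against DE the SE ran from 0.53 to 0.87, and values lay between -0.01 for TSPAN7 and 1.07 for PTPRN2. In sBC the lentiviral tag and the stage cannot be told apart, because the RNA came from cells whose label lacks it. In TE of GFP+ sBC against hPSC, 2 of 5 duct and acinar markers tested passed. They were CFTR (6.39 ± 0.75, adjusted p = 0.000466) and SPP1 (4.75 ± 0.58, adjusted p = 0.000635). CFTR had 255 and 392 CPM in GFP+ sBC IP-Ribo, scaled separately, 8.54 and 8.79 CPM in GFP+ RNA, and 399 and 829 CPM in GFP- RNA. Whether the 2 GFP+ preparations held the same cells was not tested.

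Within a stage, the same fit gives each gene's FLAG footprints over its RNA, a value that also carries the length of mRNA outside the reading frame and is given as a description. In sBC this value also carries any difference in cells between the RNA and IP-Ribo preparations. SLC30A8 had the lowest log2 ratio of the 7 genes at each stage, at -1.87 ± 0.25 in GFP+ sBC, -2.47 ± 0.43 in DE and -2.72 ± 0.41 in hPSC. Of all genes 23.7% were lower in GFP+ sBC, 17.4% in DE and 18.6% in hPSC. PTPRN2 was also below the median of all genes at each stage, at -1.04 ± 0.23 in GFP+ sBC, -2.11 ± 0.76 in DE and -1.48 ± 0.30 in hPSC, where the medians were -0.10, -0.23 and -0.48. GAD2 was above these medians at each stage, at 0.55 ± 0.22 in GFP+ sBC, 0.38 ± 0.83 in DE and -0.21 ± 0.25 in hPSC, though in DE by less than its SE. GAD1 (0.68 ± 0.48, 0.04 ± 0.42 and -0.26 ± 0.46) and TSPAN7 (0.24 ± 0.30, 0.25 ± 0.71 and 0.39 ± 0.49) were above them too. Both were within their SE of the median in DE, and GAD1 also in hPSC. G6PC2, measured in sBC only, was at 0.09 ± 0.85.

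**Figure D5:**
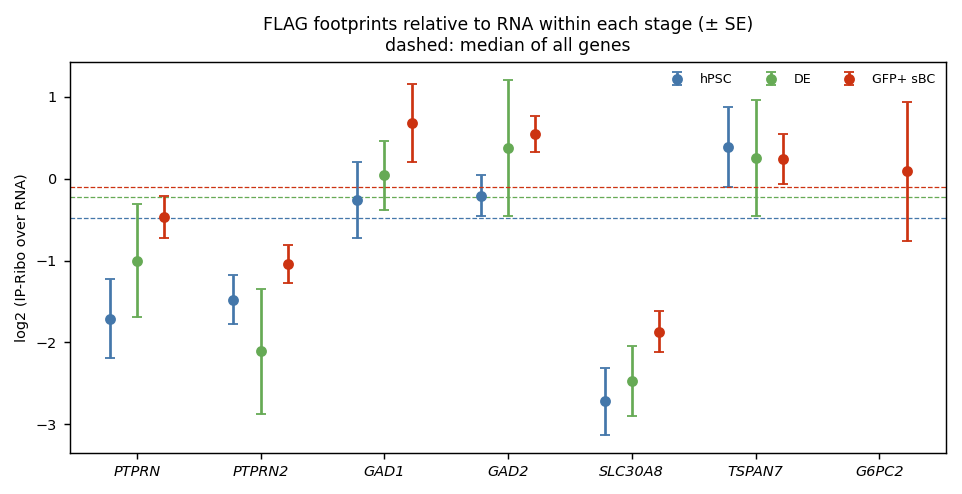
Log2 ratio of FLAG footprints over RNA for each gene within hPSC, DE and GFP+ sBC, with the SE of the fit of 12 libraries; dashed lines are the medians of all genes. SLC30A8 lies lowest at each stage, and G6PC2 has a value in GFP+ sBC alone, since it had 0 counts in the others.

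Across all 18 libraries the levels of 6 of the genes followed each other. For this measure alone, CPM were scaled with TMM factors over all 18 libraries and not within an assay. Pearson's r of log2(CPM + 0.5) ran from 0.89 (GAD2 with SLC30A8) to 0.98 for pairs without GAD1, and from -0.54 (GAD2) to -0.19 (G6PC2) for pairs with GAD1. These values describe stages and assays at once, since libraries of a stage share their cells. Among 19169 genes, those most like each member by the same measure were P4HTM (r = 0.997) for PTPRN, NCKAP5 (0.991) for PTPRN2, ABCG2 (0.994) for GAD2, NCR3LG1 (0.993) for SLC30A8, GLRB (0.993) for TSPAN7, TMED6 (0.989) for G6PC2 and LTC4S (0.961) for GAD1.

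Genes that work beside the 7 were read from lists of partners. Of 13 other reported autoantigens of type 1 diabetes, 6 were higher and 5 lower in GFP+ sBC than in hPSC RNA (median log2 fold change 1.22), the comparison in which 61.3% of all genes changed and 30.4% were higher. CHGA, the granin of dense-core granules, was higher by 10.58 ± 0.39 (adjusted p = 5.82e-06) and CPE, a peptide-processing enzyme, by 7.97 ± 0.31 (adjusted p = 5.99e-06), while UCN3, a peptide of mature beta cells, was at 8.09 and 12.8 CPM in GFP+ sBC and 0 counts in hPSC. SOX13, a transcription factor, was lower (log2 fold change -2.52 ± 0.29, adjusted p = 0.00023). None of the 12 tested passed in the sort.

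Around the GAD enzymes, 5 of 9 tested genes of GABA synthesis, transport and breakdown were higher and 1 lower in GFP+ sBC than in hPSC RNA, against 30.4% of all genes higher. ABAT, which degrades GABA, was at 30.9 and 53.6 CPM in GFP+ sBC and 12.5 and 11.6 CPM in hPSC (log2 fold change 1.81 ± 0.35, adjusted p = 0.00314). In DE against hPSC 3 were higher and 4 lower, a share near the 75.6% of all genes that changed. The vesicular GABA transporter SLC32A1 was among the lower, near the detection floor, at 0.0131 and 0.0262 CPM in DE (3 counts) and 0.338 and 0.253 CPM in hPSC (41 counts), a ratio of 0.0666 (counting interval 0.0132 to 0.209, adjusted p = 0.000192).

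Of 19 other zinc transporters and metallothioneins, 7 were higher and 5 lower in GFP+ sBC than in hPSC RNA (median log2 fold change 0.05), shares near those of all genes (61.3% changed, 30.4% higher). SLC30A4, a transporter of the same family as SLC30A8, was at 43.5 and 33.0 CPM in GFP+ sBC, 9.57 and 7.72 CPM in DE, and 0.0736 and 0.0422 CPM in hPSC. Unlike SLC30A8 it was thus higher in DE than in hPSC, by 7.24 ± 0.26 (adjusted p = 1.41e-09). The metallothionein MT1X, which binds zinc, was lower in GFP+ sBC than in hPSC (log2 fold change -3.07 ± 0.83, adjusted p = 0.014).

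Beside G6PC2, 5 of 9 tested genes of glucose uptake, phosphorylation and glucose-6-phosphate were higher and 4 lower in GFP+ sBC than in hPSC RNA, against 61.3% of all genes that changed. The hexokinases fell, HK1 to 25.2 and 33.9 CPM in GFP+ sBC against 246 and 263 CPM in hPSC (-3.11 ± 0.34, adjusted p = 0.000184) and HK2 likewise (-4.06 ± 0.63, adjusted p = 0.00105). Of 12 granule membrane genes and partners of PTPRN, 7 were higher and 2 lower, led by the monoamine transporters SLC18A1 and SLC18A2 (7.09 ± 0.52 for SLC18A2, adjusted p = 3.25e-05) and the calcium sensor SYT7 (6.0 ± 0.22, adjusted p = 5.5e-06). SLC18A1 is also 1 of the 3 markers of enterochromaffin-like cells, which summed to 757 and 1117 CPM in GFP+ sBC and 0.897 and 0.914 CPM in hPSC, and the part of such cells was not tested. PTBP1, an RNA-binding protein that stabilises granule mRNAs, was lower (log2 fold change -2.42 ± 0.23, adjusted p = 9.18e-05).

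Of 14 other tetraspanins, 10 were higher and 2 lower in GFP+ sBC than in hPSC RNA, where 30.4% of all genes were higher and 61.3% changed. TSPAN1 was at 66.7 and 108 CPM in GFP+ sBC and 0 and 0.0141 CPM in hPSC. CD9 was the 1 gene of these 6 lists that passed in the sort, where 2.43% of all genes did, at 1.84 and 1.15 CPM in GFP+ sBC and 12.8 and 8.25 CPM in GFP- sBC (log2 fold change -2.83 ± 0.50, adjusted p = 0.0327).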

How the data were processed

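RNA-seq, Ribo and IP-Ribo libraries were grouped by their labels into 9 groups of 2. The values deposited by the authors are estimated counts for 57808 genes, all in a single table. In each library 16.8% to 31.3% of them were fractional, and they were rounded before testing. Salmon, DESeq2, UMI-tools, cutadapt and Bowtie and the build GRCh38 are named, without versions, per the submitters' processing notes. Of the identifiers 57030 (98.7%) matched a table of gene names.

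Counts were tested with edgeR 4.0.16 in R 4.3.3 (filterByExpr, TMM, robust quasi-likelihood F test, Benjamini-Hochberg over all genes tested). The sort, RNA of DE over hPSC, and Ribo were each fitted on their own 4 libraries, sBC over hPSC or DE on 8 RNA libraries, IP-Ribo on 6 and TE on 12. The steps were checked on simulated counts. Ratios against 1 to 3 counts have exact 95% counting intervals, and a group at 0 is set to 3 counts. Intervals and floors cover counting error only. The 7 genes, the partner lists (10 to 19 genes) and the marker lists were chosen with earlier results of these data known. From each list up to 3 genes per direction past the threshold were eligible for naming, by size of change, and from the likeness ranking the first 3, over genes with at least 1 CPM in 2 libraries. Some genes of the lists are not reported here.

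Alternatives were RLE in place of TMM, dropping or tightening the filter (1 CPM and 10 counts in 2 libraries), DESeq2 1.42.0, a replicate block, each library left out, a minimum log2 fold change of 1 (glmTreat), removal of features over 5% of a library, all 8 RNA libraries, and Ribo in place of IP-Ribo. Replicate numbers were not taken as pairs, since the labels do not say whether equal numbers share a culture or sort. Within an assay, the replicate differences of groups correlated between -0.2 and 0.09. RNA was not set against IP-Ribo in this way, and such values cannot exclude a shared culture or sort.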

Additional observations from a re-analysis of the deposited data

How the results depend on the processing

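Depth and n = 2 limit these results. In footprints of hPSC and DE the genes other than GAD1 and GAD2 had 0 to 77 counts per group. GAD2 had 3 counts in DE IP-Ribo and 10 in DE Ribo, and GAD1 had 32 in hPSC IP-Ribo and 33 in hPSC Ribo. Their other hPSC and DE footprint groups had 123 to 162 counts. A lone library left in a group was assumed to vary like the others. Of 198 recomputed counts of genes called, 188 stayed within 1.5 times. In the sort, where 0 of the 7 passed, the count was 2 (SLC30A8 and G6PC2) with no filter on low counts, with DESeq2 and with the replicate block, 1 (SLC30A8, adjusted p = 0.0153) in the fit of all 8 RNA libraries, and 0 to 3 with a library left out, the 3 being GAD2, SLC30A8 and TSPAN7 without GFP- replicate 2. It was 0 to 4 in Ribo, with 0 without either hPSC library, and 0 to 1 for TE of GFP+ sBC over DE, the 1 being SLC30A8 without DE IP-Ribo replicate 2 (adjusted p = 0.0322). For the other comparisons the replicate block left the count within 1.5 times of the main one. With the hPSC numbers exchanged in the block, a setting chosen after seeing the data, GAD1 did not pass in IP-Ribo of DE over hPSC (adjusted p = 0.0832), where 2 genes were called, and 3 were called in Ribo. The causes were not tested.

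None of the log2 fold changes whose sign turned under a setting had passed in the comparison as reported. With all libraries, the settings that turned a sign gave -0.01 for GAD1 in the sort (no filter) and 0.00 for SLC30A8 in IP-Ribo of DE over hPSC (DESeq2). For TE of DE over hPSC they gave 0.00 (RLE) and -0.06 (no filter) for SLC30A8, -0.01 for GAD1 (no filter), and, with Ribo in place of IP-Ribo, -0.25 for PTPRN and 0.28 for PTPRN2. For TE of GFP+ sBC over DE, TSPAN7 was at 0.10 (RLE), 0.09 (no filter), 0.02 (stricter filter), 0.09 (DESeq2) and 0.34 (features over 5% removed).

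With 1 library left out, the log2 fold change ran from -0.13 to 0.47 for PTPRN2 and from -0.28 to 0.37 for GAD1 in the sort. In RNA it ran from -0.04 to 0.23 for SLC30A8 in DE over hPSC, and for GAD1 from -0.04 to 0.32 in GFP+ sBC and from -0.20 to 0.42 in GFP- sBC over hPSC. In DE over hPSC footprints it ran from -4.98 to 0.47 for SLC30A8 and from -2.11 to 0.30 for TSPAN7 in IP-Ribo, and from -0.22 to 0.46 for SLC30A8 in Ribo. For TE of DE over hPSC the range was -6.24 to 0.85 for PTPRN, -0.48 to 0.71 for GAD1, -0.85 to 1.64 for GAD2, -7.80 to 0.43 for SLC30A8 and -1.24 to 1.16 for TSPAN7. For TE of GFP+ sBC it was -0.13 to 0.62 for PTPRN2, -0.14 to 1.41 for GAD1 and -1.2 to 1.21 for TSPAN7 over hPSC, and -0.12 to 1.23 for GAD1, -1.12 to 1.37 for GAD2 and -0.48 to 0.31 for TSPAN7 over DE.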
